A study of Homo sapiens with 4 samples.

Results

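The genes described here are 10 classic transcriptional targets of the tumour suppressor p53, taken by name from the table that the authors deposited: CDKN1A, MDM2, C12orf5 (now called TIGAR), TP53INP1, SESN1, ZMAT3, RRM2B, BTG2, GADD45A and TNFRSF10B. Of these 10 genes, 6 have a row among the 8727 rows of the table and 4 (SESN1, RRM2B, BTG2 and TNFRSF10B) have none. The study compared HepG2 cells given 20 µM isoginkgetin for 24 h (2 libraries) with HepG2 cells given the solvent DMSO (2 libraries). HepG2 is a human liver cancer line, which the labels call hepatoblastoma, and isoginkgetin is a plant biflavonoid known to inhibit pre-mRNA splicing. Polyadenylated RNA of bulk cultures of this one line was sequenced, and the labels do not state whether replicates were grown as separate cultures, so p-values reflect library-to-library spread that may be technical.

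p53 is a transcription factor that is kept low by constant degradation and accumulates when DNA is damaged, when ribosome assembly fails or under other stress. It then binds response elements made of a pair of half-sites and switches on genes that halt the cell cycle, repair DNA, adjust metabolism or start cell death. One of them, MDM2, encodes the ubiquitin ligase that marks p53 itself for degradation, which closes a feedback loop. Some of these targets, among them CDKN1A, GADD45A and TNFRSF10B, are known to be induced by other transcription factors as well.

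Expression values were taken from 1 table, deposited by the authors, that lists per gene the mean normalized count of the 4 libraries, the log2 fold change, its standard error (SE), and the raw and adjusted p. The table stops at an adjusted p of 0.05. A gene without a row therefore has no value and no known direction. No header says which group is the numerator. Here isoginkgetin is taken as the numerator and DMSO as the denominator, as is usual for a treatment, and the opposite choice would turn every direction given. The table holds no values of single libraries, so neither their spread nor their depth can be given. Of 10 hepatocyte markers, 9 have rows (the albumin gene ALB has none), among them APOB, a lipoprotein component, and AFP, a fetal plasma protein, with mean normalized counts of 157429 and 31202 in the authors' deposited table, and all 9 were lower (log2 fold changes between −1.04 and −0.21). Markers of other cells had 1 row of 3 each for fibroblasts, leukocytes and endothelium, all 3 lower, with mean normalized counts in the authors' deposited table of 15328 for the leukocyte marker LYZ, 128.9 for PECAM1 and 60.2 for PDGFRB. All libraries are of this one line, so these markers are not read as shares of cell types. The part of these lower levels in the results below was not tested. Bulk RNA cannot tell fewer cells expressing a gene from less of its RNA per cell.

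The sequence through which p53 is known to act is its response element, 20 bases long and built of adjacent half-sites of 10 bases. It was searched on both strands, allowing 3 mismatches and no spacer, in RefSeq promoter windows of GRCh38.p14 that run from 250 bases before a transcription start to 50 bases after it. Windows exist there for 6 of the 10 genes (CDKN1A, MDM2, C12orf5, SESN1, ZMAT3 and BTG2), and 2 of these 6, MDM2 and SESN1, hold a match. The windows around the pair of starts inside the MDM2 gene hold 2 matches each, in shared bases, and 1 of the 3 SESN1 windows holds 1. Among all 35116 windows of this length, 5.2% hold at least 1 match and 0.313% hold 2 or more. By gene, 6.39% of 27305 genes have at least 1 window with a match. Of the windows with matches, 1 of MDM2 and 1 of SESN1 are shown because they hold the motif that p53 is known to bind, with the matches in capitals. The MDM2 window lies at chr12:68808774-68809073 on the plus strand and the SESN1 window at chr6:109008939-109009238 on the minus strand.
MDM2 internal promoter: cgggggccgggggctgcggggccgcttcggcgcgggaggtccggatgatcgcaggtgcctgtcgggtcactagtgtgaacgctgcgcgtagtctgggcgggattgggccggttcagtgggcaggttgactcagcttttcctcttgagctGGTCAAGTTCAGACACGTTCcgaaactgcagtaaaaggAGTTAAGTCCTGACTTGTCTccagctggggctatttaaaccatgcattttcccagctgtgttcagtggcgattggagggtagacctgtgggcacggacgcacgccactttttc
SESN1 promoter: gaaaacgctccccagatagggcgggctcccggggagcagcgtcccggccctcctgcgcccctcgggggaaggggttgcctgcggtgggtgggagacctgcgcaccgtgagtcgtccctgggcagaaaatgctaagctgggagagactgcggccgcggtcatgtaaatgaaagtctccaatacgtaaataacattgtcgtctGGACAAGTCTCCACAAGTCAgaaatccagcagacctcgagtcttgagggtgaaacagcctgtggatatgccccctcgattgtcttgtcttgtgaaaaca
The first MDM2 element begins 101 bases before this start and departs from the response element at 2 positions, and the second begins 63 bases before it and departs at 3. The SESN1 element begins 49 bases before its start and departs at 3 positions. No match in CDKN1A, C12orf5, ZMAT3 or BTG2 says only that these letters are not in these windows.

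All 6 p53 targets with a row were higher in isoginkgetin-treated cells than in DMSO cells, by 1.16-fold to 3.71-fold. C12orf5, which encodes the fructose bisphosphatase TIGAR, showed the largest fold change of the 6, followed by the stress gene GADD45A, the p53 ligase gene MDM2, the cell cycle inhibitor gene CDKN1A, the stress gene TP53INP1 and, closest to 0, the RNA-binding protein gene ZMAT3. The 6 called genes are 60% of the 10. Over all 20024 genes tested, a number implied by the table's p-values and adjusted p-values, 43.6% were called in either direction, 22.4% higher and 21.1% lower. A 2-fold rise or more was found for 3 of the 10 (C12orf5, GADD45A and MDM2), against 6.26% of all genes tested. The 10 genes were chosen with earlier results of these data known, so these shares are descriptive. Since the table holds only called genes, the median log2 fold change of the 6, 0.95, describes those that passed and not all 10, as the median of 0.21 over all rows describes only called genes.

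**Figure D1:**
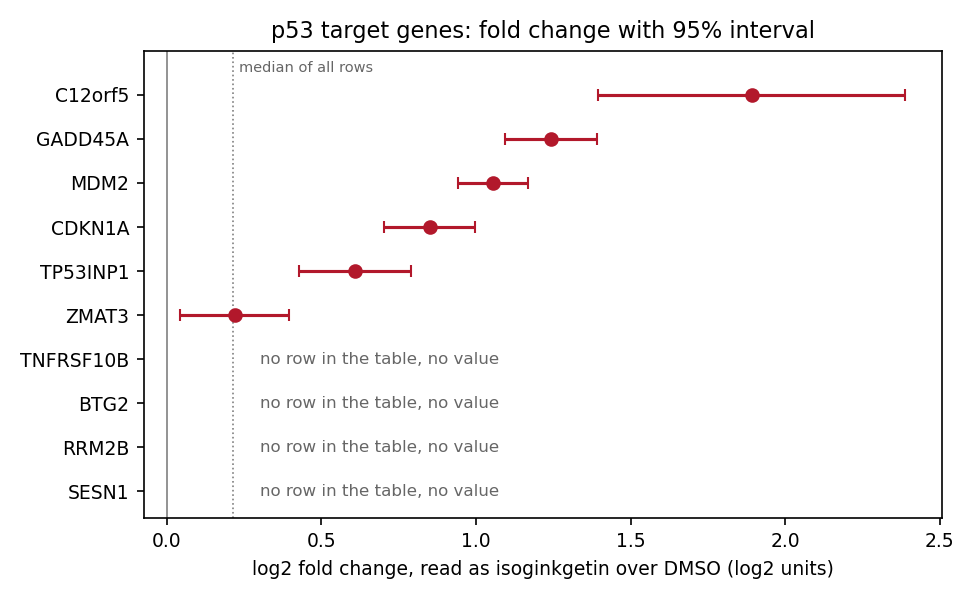
Log2 fold change (x axis, read as isoginkgetin over DMSO) of each of the 10 p53 target genes, with points for the value in the authors' deposited table and bars for its 95% interval (1 row of the table per gene, 2 libraries in each group). All 6 genes with a row lie above 0, from ZMAT3 at 0.22, next to the dotted line at the median of all rows (0.21), to C12orf5 at 1.89, and 4 genes have no row.

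MDM2, the feedback inhibitor of p53, had the highest mean normalized count of the 6 in the authors' deposited table, 9353. Its log2 fold change there was 1.05 (SE 0.06), which is 2.08-fold. Its Benjamini-Hochberg adjusted p was 6.41e-73 in the authors' deposited table, and its p-value ranked 155 among the 8727 rows, the best of the 6. The relative of MDM2 that also binds p53, MDM4, was likewise higher in the authors' deposited table, by 0.997 on the log2 scale (SE 0.11, adjusted p 1.35e-20). The counts carry no strand. In the GENCODE v29 annotation, the 13284 exon bases of MDM2 share 785 with AC025423.4 and 133 with CPM, both on the opposite strand, and 439 with the pseudogene AC025423.2 on the same strand.

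CDKN1A encodes p21, which binds and inhibits cyclin-dependent kinases and is the main means by which p53 stops cells before DNA replication. The authors' deposited table puts its log2 fold change at 0.85 (SE 0.08, adjusted p 1.00e-28) and its mean normalized count at 3408. The change was thus 1.80-fold. That placed it 1552nd of the 4493 higher genes, so 34.5% of the higher genes changed at least as much. GADD45A, a small protein that acts in growth arrest and DNA repair, was higher by 2.37-fold in the authors' deposited table (log2 fold change 1.24, SE 0.08, adjusted p 2.47e-58). It ranked 959th of the 4493 higher genes. Both cell cycle genes thus passed the threshold with SEs close to the median of rows of like level (within 1.2-fold of their mean normalized count), which was 0.07 for CDKN1A and 0.08 for GADD45A.

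C12orf5 encodes TIGAR, an enzyme that lowers fructose-2,6-bisphosphate and thereby slows glycolysis. In the authors' deposited table it was higher by 1.89 on the log2 scale (SE 0.25, adjusted p 9.69e-14). That corresponds to 3.71-fold, with a 95% interval of 2.63-fold to 5.24-fold. It also had the lowest mean normalized count of the 6, 186.04 in the authors' deposited table, and the largest SE. Per kilobase of exon in GENCODE v29, its mean normalized count was 46.3, against 151 for ZMAT3, 238 for TP53INP1, 704 for MDM2, 1117 for CDKN1A and 1124 for GADD45A. These levels per length rest on the exons of all annotated transcripts, which may differ from the annotation used by the authors. A neighbouring gene named AC008012.1 shares 42.6% of the C12orf5 exon bases on the same strand in GENCODE v29. If the authors' annotation held such an overlap, reads there could not be assigned to one gene.

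TP53INP1 encodes a stress protein that promotes p53 activity and can bind proteins of the autophagosome. It was higher by 1.52-fold in the authors' deposited table (log2 fold change 0.61, SE 0.09, adjusted p 2.10e-10), where its mean normalized count is 1352. That is near the middle of the higher genes, of which 52.2% changed at least as much. ZMAT3, a zinc finger protein that binds RNA, was higher by only 0.22 on the log2 scale (SE 0.09, adjusted p 0.0327), by the authors' deposited table. That is 1.16-fold, with a 95% interval of 1.03-fold to 1.32-fold. Of the 862 rows within 1.2-fold of its mean normalized count, 12 lay closer to 0, so it stands at the edge of what reached the table at that level. Its fold change also lies at the median of all rows, and relative to that median it was 0.0066 on the log2 scale.

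The order of the 6 fold changes can be set against their errors, taking the estimates as independent although they share libraries. C12orf5 lay above GADD45A by 0.65 on the log2 scale (95% interval 0.13 to 1.17), and TP53INP1 lay above ZMAT3 by 0.39 (0.13 to 0.64). The steps between were smaller, with lower interval ends nearer to no difference. GADD45A exceeded MDM2 by 0.19 (0.00056 to 0.38), MDM2 exceeded CDKN1A by 0.20 (0.018 to 0.39) and CDKN1A exceeded TP53INP1 by 0.24 (0.0092 to 0.48). Every interval excluded no difference, by a wider margin at the extremes of the order than in its middle. The genes were ordered by these same fold changes, so each difference is positive by construction. The intervals are unadjusted, and they describe the order without testing it.

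**Figure D2:**
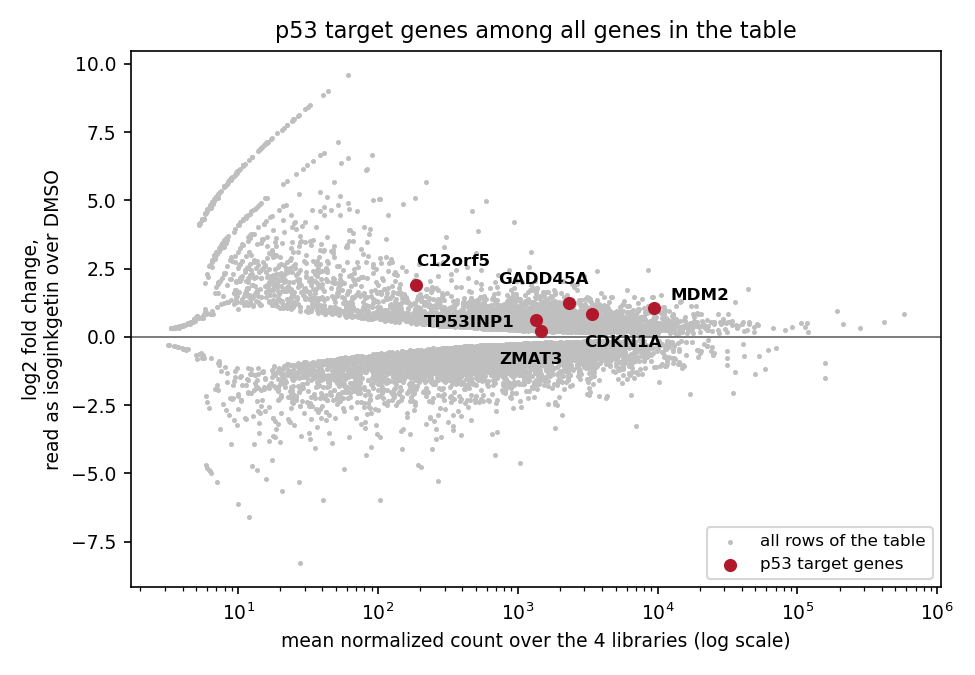
Mean normalized count over the 4 libraries (x axis, log scale) against log2 fold change (y axis, read as isoginkgetin over DMSO) for the 8727 rows of the authors' deposited table (grey), with the 6 p53 target genes in red. C12orf5 sits at the low end of the counts (186.04) with the highest fold change of the 6, and MDM2 at the high end (9353). The blank band around 0 is the range in which the table has no rows.

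The 4 targets without a row are SESN1, a sestrin that restrains the growth kinase complex mTORC1, RRM2B, a ribonucleotide reductase subunit that supplies nucleotides for repair, BTG2, an antiproliferative partner of the CCR4-NOT deadenylase, and TNFRSF10B, a death receptor for the ligand TRAIL. Their direction is unknown. Of 24 listed relatives of the members 11 have rows, and these were divided into 6 higher and 5 lower (median log2 fold change 0.38). Both shares were near those of the whole table. Of the relatives 45.8% have a row, against 43.6% of all genes tested, and 54.5% of their rows were higher, against 51.5% of all rows. In the authors' deposited table SESN2, a sestrin that answers to several stresses, was at 0.98 (SE 0.06, adjusted p 4.58e-55). BTG3 and BTG1, of the family of BTG2, were at 0.82 and 0.40 in the authors' deposited table. CDKN1B, which encodes the p21 relative p27, was at 0.38 and the TRAIL decoy receptor gene TNFRSF10D at 0.39 in the authors' deposited table. The other ribonucleotide reductase subunit genes were lower, RRM2 at −0.40 and RRM1 at −0.33 in the authors' deposited table. TP53INP2 was at −0.64 there, against the 0.61 of TP53INP1. Of the PFKFB enzymes, whose reaction TIGAR opposes or shares, PFKFB4 was at −2.39, PFKFB3 at −1.60 and PFKFB2 at 0.47 in the authors' deposited table.

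The other p53 targets were divided between the directions. Over lists of targets in growth and metabolism, cell death and DNA repair, 26 of 43 genes have rows, of which 10 were higher and 16 lower. Their log2 fold changes had a median of −0.29. The 26 are 60.5% of those listed, against 43.6% of all genes tested. Higher genes made up 38.5% of these 26, and 51.5% of all rows. With the 6 genes above, 16 targets were higher and 16 lower, so 50% of these rows were higher, near the 51.5% of all rows.

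Among 23 targets in growth and metabolism, 5 were higher and 8 lower (median −0.29). Of their rows 38.5% were higher, against 51.5% of all rows. Of those listed 56.5% have a row, against 43.6% of all genes tested. In the authors' deposited table GDF15, a secreted stress cytokine with a mean normalized count of 35838, was at 1.29 (SE 0.04, adjusted p 1.58e-191). The polo-like kinase genes PLK2 and PLK3 were at 1.17 and 0.91, FBXW7, a ubiquitin ligase subunit that marks cyclin E and MYC, at 0.92, and the cell surface protein gene NINJ1 at 0.45 in the authors' deposited table. Lower were STEAP3, a metalloreductase of iron uptake, at −1.03 and ALDH4A1, an enzyme of proline breakdown, at −0.70 in the authors' deposited table. SPATA18, which acts in mitochondrial quality control, was at −0.65, KITLG, the ligand of the receptor KIT, at −0.63, and the cytokine gene LIF at −0.46 in the authors' deposited table. FBXO22, a ubiquitin ligase subunit, was at −0.30, RPS27L, a ribosomal protein paralog, at −0.29 and FDXR, a mitochondrial electron carrier reductase, at −0.23 in the authors' deposited table.

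Death genes were divided, with 5 higher and 4 lower among 14 listed (median 0.31). This split was near that of the whole table: 55.6% of their rows were higher, against 51.5% of all rows. Of those listed 64.3% have a row, against 43.6% of all genes tested. Of the higher ones, PMAIP1 (NOXA) was at 0.89 (SE 0.21), BBC3 (PUMA) at 0.81 (SE 0.11) and BID at 0.31 (SE 0.12, adjusted p 0.0241), all by the authors' deposited table, and these 3 encode BH3-only proteins, which trigger the mitochondrial death pathway. The receptor gene EDA2R was at 0.51 in the authors' deposited table. TP53AIP1, a mitochondrial protein gene, stood at 3.01, but its SE of 1.31 and its mean normalized count of 12.3 in the authors' deposited table leave the size poorly known. BAX, the pore-forming effector on which BH3-only proteins act, was lower in the authors' deposited table, at −1.04 (SE 0.07, adjusted p 9.93e-44). PERP, a membrane protein gene, was at −0.48, PIDD1, the scaffold of a caspase-2 complex, at −0.31 and the nuclease gene AEN at −0.15 in the authors' deposited table.

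All 4 DNA repair targets with a row, of 6 listed, were lower (median −0.90). Of all rows 48.5% were lower (median 0.21), and of all genes tested 21.1% were called lower. DDB2, the damage sensor of nucleotide excision repair, had the lowest value of any target listed in the authors' deposited table, −1.99 (SE 0.10, adjusted p 9.27e-80). XPC, which recognises damage in the same pathway, was at −0.92, FANCC, of the crosslink repair pathway, at −0.88 and PCNA, the sliding clamp of DNA replication, at −0.36 in the authors' deposited table.

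**Figure D3:**
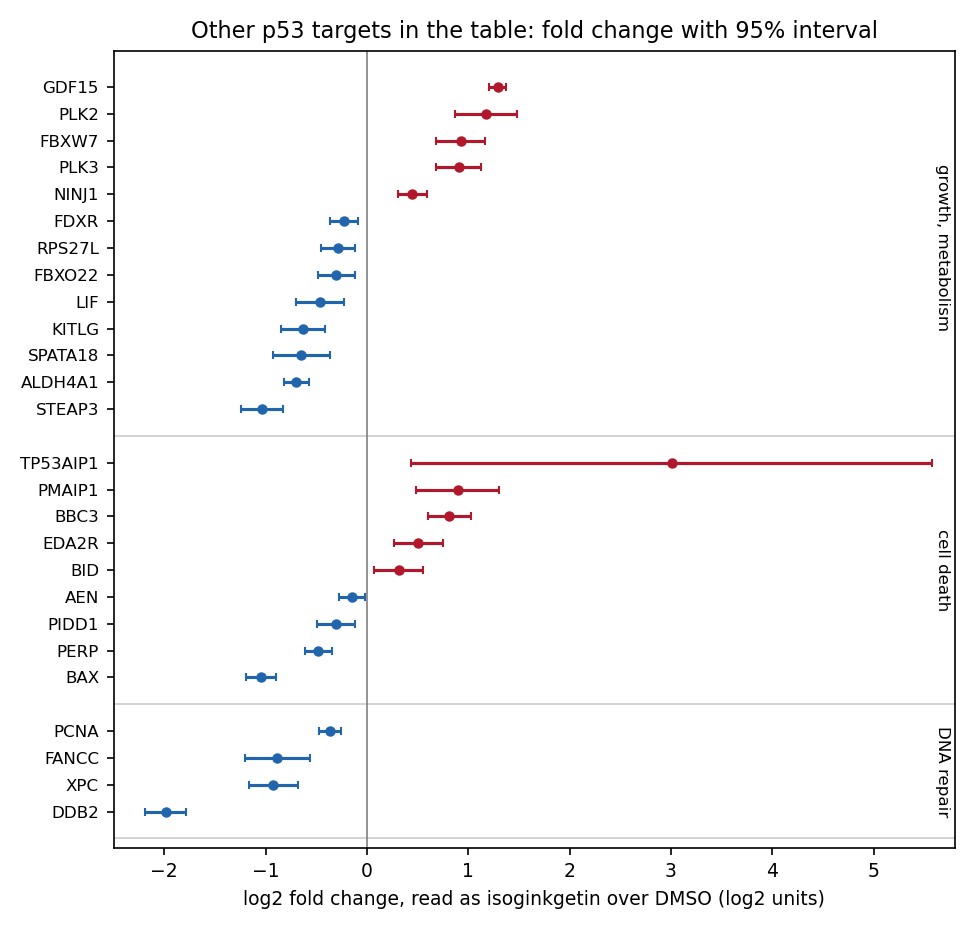
Log2 fold change (x axis, read as isoginkgetin over DMSO) with its 95% interval for the 26 other p53 targets with a row in the authors' deposited table, grouped by function; red points are higher and blue points lower in isoginkgetin-treated cells. The 4 DNA repair targets are all lower, down to DDB2 at −1.99, while the other groups hold genes of both directions.

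Genes that control p53 were divided as well, with 7 higher and 8 lower among the 15 of 18 listed that have rows (median −0.29). Rows exist for 83.3% of those listed, against 43.6% of all genes tested. Lower genes made up 53.3% of these rows, and 48.5% of all rows. Besides MDM4, the genes higher were RCHY1 (0.87), a ubiquitin ligase of p53, SIRT1 (0.85), a deacetylase of p53, KAT5 (0.50), an acetyltransferase of p53, and USP7 (0.27), which removes ubiquitin from p53 and MDM2, in the authors' deposited table. The ribosomal protein genes RPL11 and RPL5, whose free proteins can block MDM2, were at 0.48 and 0.39 in the authors' deposited table; reads of both may be shared with processed pseudogenes. Of the 8 lower genes, the authors' deposited table lists PRKDC at −1.08 (SE 0.06, adjusted p 1.99e-76), ATR at −0.94, CHEK1 at −0.69, CHEK2 at −0.65 and ATM at −0.52, each of which encodes a kinase of DNA damage signalling. HIPK2, another kinase of p53, was at −0.39, and the ubiquitin ligase genes TRIM24 and RFWD2 (COP1) were at −0.39 and −0.29 in the authors' deposited table.

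**Figure D4:**
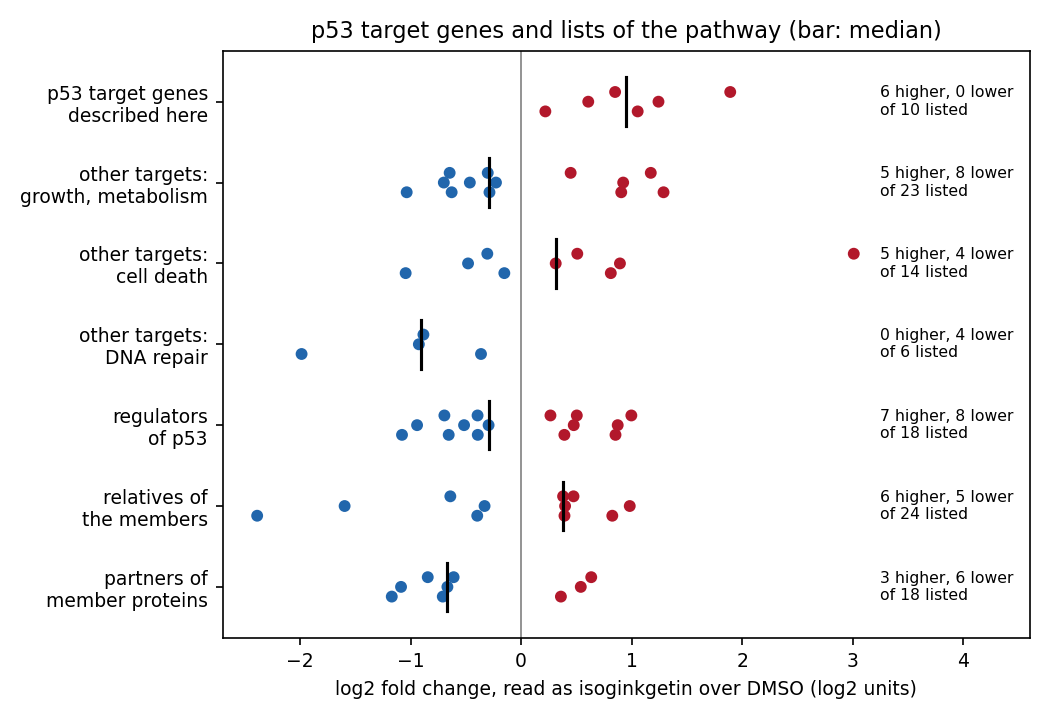
Log2 fold changes (x axis, read as isoginkgetin over DMSO) of all listed genes with a row, 1 point per gene, for the p53 target genes described here and 6 lists of the pathway; black bars are medians, and counts stand at the right. Only the top list lies wholly above 0 and only the DNA repair targets lie wholly below it, while the other 5 lists hold genes of both directions. The members and lists were chosen with earlier results of these data known, so the contrast between lists is descriptive.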

How the data were processed

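Polyadenylated RNA of 4 HepG2 libraries (2 isoginkgetin, 2 DMSO, grouped by title) was sequenced with a kit that keeps no strand, per the labels' protocols. The submitters' processing notes name STAR 2.7.0 and featureCounts with builds hg19 and mm10, without their roles. The authors deposited 1 table of their own comparison, with the columns of a DESeq2 results table per the file headers; its version, model and numerator were not stated in any source read. Mean normalized counts, as deposited, are a signal averaged over all libraries. Fold changes and SEs are log2 values, per the file headers. Each gene has a deposited p-value and an adjusted one, and the largest pair and its rank imply Benjamini-Hochberg adjustment over 20024 genes. The fold changes look shrunken, a step no header or label records: undoing a normal shrinkage multiplied those of the 6 members by little (C12orf5 2.04 in place of 1.89).

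No test of a value per library could be run, so calls are the authors' own. Intervals are the fold change ± its SE times the normal quantile for 95%, and depth is unknown. Gene lists were matched by symbol, or by an older symbol (PIDD to PIDD1). The members and lists were chosen with earlier results of these data known. One gene of the regulator list is not reported here. The text names all members and every other gene of the 6 lists with a row. Computation used Python 3.11.15, pandas 2.3.3 and scipy 1.17.1, and the recovered number of tests and the undone shrinkage were tested on simulated data. Alternatives were stricter thresholds, a 2-fold minimum, centring on the median of all rows and undone shrinkage.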

Additional observations from a re-analysis of the deposited data

How the results depend on the processing

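At an adjusted p under 0.001, and with Bonferroni over 20024 genes, 5 of the 6 p53 target genes kept their call and ZMAT3 lost it. The share of all rows that kept a call at these 2 settings was not counted, so 5 of 6 cannot be set against it. At 2-fold or more 3 were left, where 6.26% of all genes tested were called at least 2-fold higher. The share of all genes at least 2-fold lower was not counted. Centring on the median of all rows brought the median log2 fold change of the 6 to 0.74, against 0.95 as deposited, and undone shrinkage gave 0.96; that median comes from called genes only. The undone values took a separate factor for each gene from its own fold change, SE and p-value, assuming normal shrinkage. The prior widths implied by these factors differed between rows of low and high counts, where 1 normal prior for all genes would give 1 width. The undone values are therefore approximate. At an adjusted p under 0.001 the lower targets of growth and metabolism came to 5 (8 at 0.05), the higher death targets to 3 (5) and the lower ones to 2 (4). At 2-fold or more the regulators came to 0 higher and 1 lower, targets of growth and metabolism to 2 and 1, of cell death to 1 and 1, of DNA repair to 0 and 1, relatives to 0 and 2, and partners to 0 and 2. Shares over all genes at 0.001 or at 2-fold lower are missing for these lists too, so their losses cannot be read as particular to them. No paired analysis was possible because the table gives no values per library, and leaving out each replicate in turn was not run for the same reason. Depth per library is unknown, and SEs grew as counts fell, from 0.06 for MDM2 to 0.25 for C12orf5.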

Other observations

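Of 18 listed genes whose proteins work with those of the p53 targets, 6 were lower, 3 were higher and 9 have no row. The 9 with rows are 50% of those listed, near the 43.6% of all genes tested. Their median log2 fold change was −0.67, against 0.21 over all rows, and 66.7% of them were lower, against 48.5% of all rows. Of the kinases and cyclins that p21 binds, the authors' deposited table lists CDK6 at −1.17 (SE 0.07, adjusted p 1.06e-64), CCND1 at −0.84 (SE 0.05), CDK2 at −0.61 (SE 0.14) and CDK4 at 0.54 (SE 0.08). On the death receptor side of the authors' deposited table, CASP8, the caspase that TNFRSF10B recruits, was at −0.67 (SE 0.12). TNFSF10, the gene of its ligand TRAIL, was at −1.09 with a wide SE of 0.64 in the authors' deposited table. CNOT7, a deadenylase that BTG2 binds, was at 0.36 in the authors' deposited table. Of the GATOR1 complex, which restrains mTORC1 downstream of sestrins, NPRL2 was at 0.63 and NPRL3 at −0.71 in the authors' deposited table.

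CPM, a carboxypeptidase gene that overlaps the end of MDM2 on the opposite strand in GENCODE v29, stood at 5.68 on the log2 scale in the authors' deposited table (SE 0.90, adjusted p 1.19e-09), with a mean normalized count of 48.7. It was named after its value was seen. The counts carry no strand and MDM2 has a mean normalized count of 9353, so how many of the CPM reads came from MDM2 transcripts was not tested.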
